A study of Mus musculus with 2 samples.

Results

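Adamts19 and 7 related genes (Adamts1, Adamts2, Adamts5, Adamts9, Adamts10, Adamts12 and Adamts17) were followed across the cell types of the fetal mouse ovary in the absence and presence of the glucocorticoid receptor (GR). They were found by gene symbol among the 27998 genes counted, 8 of the 19 Adamts genes listed. Adamts19 was chosen because its level in granulosa-like cells was lower without GR, so its granulosa values are given as a description and support nothing. Single-cell RNA sequencing had been performed on female embryonic ovaries at E15.5, with 1 library for each genotype. Embryos with a homozygous deletion of GR (KO) came from crosses of heterozygotes whose Nr3c1 exon 3, floxed in the strain Nr3c1tm1.1Jda, had been removed with a β-actin cre, so the deletion is present in every cell. Wild-type embryos (WT) served as controls, and both groups carried the Pou5f1-EGFP transgene, which labels germ cells. Ovaries of 2 KO and 4 WT embryos were pooled, sorted for the transgene and remixed at 60 germ cells to 40 somatic cells, so that the overall share of germ cells is set by the sort. With 1 library in each group there is no replicate, no test was possible, and genotype cannot be told apart from the pool, the sort or the capture.

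ADAMTS proteins are secreted zinc metalloproteases that carry thrombospondin repeats and act on the matrix between cells. Several cut the large proteoglycans versican and aggrecan, others trim the ends of procollagens, and others bind fibrillin microfibrils. In the adult ovary, ADAMTS1 is known for its part in remodelling the matrix around the ovulating follicle. The substrate of ADAMTS19 is not well established, and its closest relative in sequence is ADAMTS17.

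After filtering, 15502 KO and 9045 WT cells remained, with medians of 10194.5 and 15685 unique molecular identifiers (UMIs, each standing for 1 captured transcript) per cell. The libraries shared 75 barcodes, 27 of them among kept cells. Clusters were named from marker genes, with the suffix -like, as 8 classes. Germ-like cells numbered 10200 in KO and 6791 in WT, granulosa-like cells (the pregranulosa cells of this stage) 2045 and 939, theca-like (stromal) cells 1837 and 799, and epithelia-like (surface) cells 1085 and 400. Erythroid-like, immune-like, perivascular-like and endothelia-like cells numbered 15 to 136 in a library. Levels are given as CPM, the UMIs of a gene per 1000000 UMIs of its class in that library, with exact 95% intervals that cover counting error only. Nr3c1, the gene encoding GR, was at 6.28 CPM in KO and 26.5 CPM in WT granulosa-like cells, and its log2 KO over WT ratio lay between -2.63 and -1.96 in the 4 main classes. Reads were counted per gene, so transcripts without exon 3 still add to Nr3c1.

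Each of the 3 larger somatic-like classes contained a sub-cluster led by germ cell genes (g4, t3 and e5). Together these held 710 KO and 125 WT cells, and Scrublet, a doublet caller, marked 43.4% to 81.9% of them in each library. With these sub-clusters included, germ cell transcripts were more abundant in the somatic-like cells of the KO library. The 10 germ markers stood in granulosa-like cells at a median of 16.9% of their germ-like level in KO and 12.3% in WT, in theca-like cells at 23.9% and 16.2%, and in epithelia-like cells at 11.4% and 9.48%. Outside the germ-led sub-clusters the direction varied. The summed level of these markers was lower in KO than in WT in sub-clusters g1 (606 and 1165 CPM), g2 (274 and 869 CPM) and t1 (514 and 1621 CPM). It was higher in KO in t2 (1327 and 453 CPM), e1 (249 and 155 CPM) and e2 (428 and 186 CPM). Because of the germ-led sub-clusters, class ratios of Adamts19 are given with and without them. The same holds for other members with an interval apart from 0 in the 3 larger somatic-like classes.

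Adamts19 was a gene of the somatic cells of the ovary. In WT it was highest in epithelia-like cells (82.6 CPM, 76.2 to 89.5, from 608 UMIs), followed by granulosa-like cells (62.9 CPM, 58.6 to 67.4, from 801 UMIs) and theca-like cells (47.3 CPM, 43.0 to 52.0, from 433 UMIs). In KO it was at 43.6 CPM (40.2 to 47.3, 585 UMIs) in epithelia-like cells, 24.4 CPM (22.3 to 26.7, 479 UMIs) in granulosa-like cells and 32.1 CPM (29.3 to 35.2, 466 UMIs) in theca-like cells. Epithelia-like cells were thus the highest class in both libraries, while granulosa-like and theca-like cells changed places. The log2 ratio of granulosa-like over theca-like cells was 0.41 (0.24 to 0.58) in WT and -0.39 (-0.58 to -0.21) in KO. The ratio of granulosa-like over epithelia-like cells was -0.39 (-0.55 to -0.24) in WT and -0.84 (-1.01 to -0.66) in KO. Granulosa-like cells made up 10.4% of WT cells and contributed 39.4% of the WT Adamts19 UMIs, against 13.2% of cells and 28.0% of UMIs in KO.

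**Figure D1:**
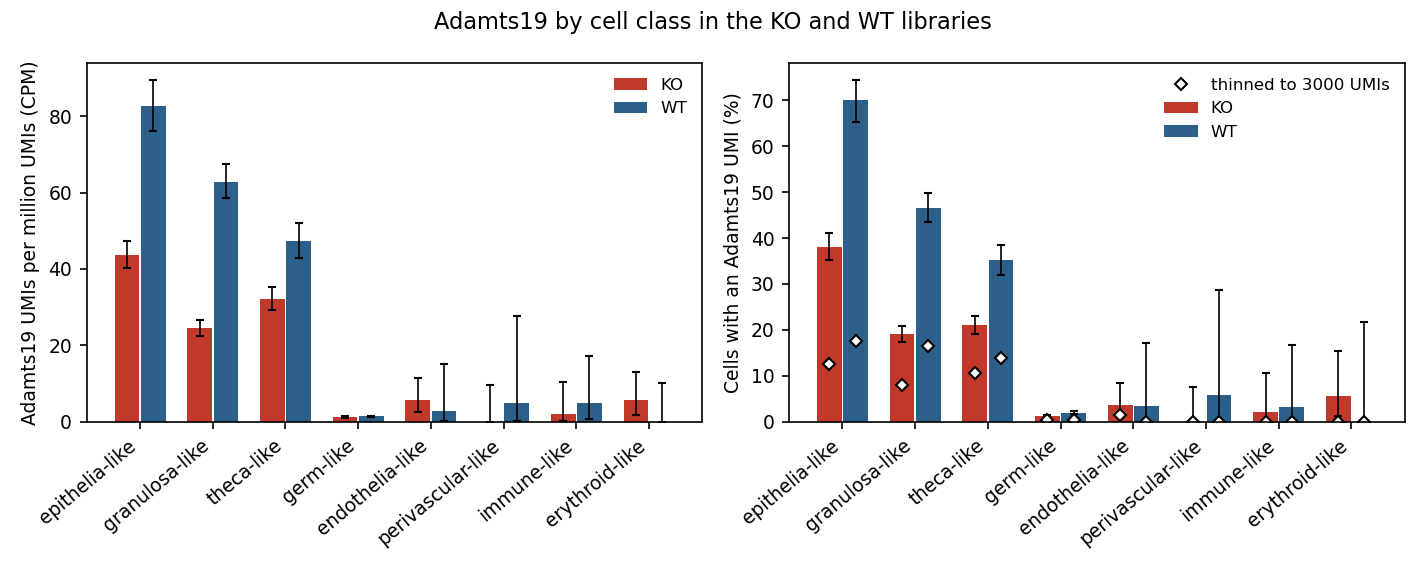
Adamts19 level (left, CPM) and percentage of cells with at least 1 Adamts19 UMI (right) in each class, KO in red and WT in blue. Bars are values of 1 library each with exact 95% counting intervals, and diamonds give the percentage after each cell was thinned to 3000 UMIs. The 3 somatic-like classes on the left stand apart from the others, and KO bars are lower in each of them.

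Adamts19 was low or close to zero in the other classes. Germ-like cells held 139 KO and 162 WT UMIs, or 1.14 CPM (0.960 to 1.35) and 1.34 CPM (1.15 to 1.57), 4.67% and 2.14% of the granulosa-like level of the same library. The 12 granulosa markers stood in germ-like cells at a median of 1.26% and 1.28% of their granulosa-like level, with ranges of 0.316% to 7.92% and 0.506% to 8.54%, so the Adamts19 signal of germ-like cells lay within the range of granulosa genes there. In KO and WT, respectively, endothelia-like cells held 8 and 1 Adamts19 UMIs, perivascular-like cells 0 and 1, immune-like cells 1 and 2, and erythroid-like cells 5 and 0. The 0 of 47 KO perivascular-like cells allows a share of up to 6.38% with a UMI, and the 0 of 15 WT erythroid-like cells a share of up to 20%, so these small classes set only loose limits.

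The share of cells with an Adamts19 UMI followed the same order, but depended on depth. It was 70.0% (65.2 to 74.5) of WT and 38.1% (35.2 to 41.0) of KO epithelia-like cells, 46.6% (43.4 to 49.9) and 19.1% (17.4 to 20.8) of granulosa-like cells, and 35.2% (31.9 to 38.6) and 21.01% (19.2 to 22.9) of theca-like cells. In germ-like cells, which served as the measure of background, it was 1.93% in WT and 1.27% in KO. Median depths in WT and KO were 17100 and 11317 UMIs in germ-like, 12670 and 8503 in granulosa-like, 9938 and 6394 in theca-like, and 16872.5 and 11237 in epithelia-like cells. When each cell was thinned to 3000 UMIs, the shares in WT and KO became 17.5% and 12.4% in epithelia-like, 16.4% and 8.02% in granulosa-like, 13.9% and 10.5% in theca-like, and 0.265% and 0.304% in germ-like cells. The KO share thus remained lower in each of the 3 somatic-like classes at equal depth. Thinned intervals were apart in granulosa-like cells (14.1 to 18.9 in WT, 6.88 to 9.28 in KO). They overlapped in theca-like cells (11.6 to 16.5 and 9.14 to 12.0) and in epithelia-like cells (13.9 to 21.6 and 10.5 to 14.6).

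The KO level of Adamts19 in granulosa-like cells was 38.9% of the WT level, a log2 ratio of -1.36 (-1.53 to -1.20). In epithelia-like cells it was 52.8%, with a log2 ratio of -0.92 (-1.09 to -0.76), and in theca-like cells 67.9%, with a ratio of -0.56 (-0.75 to -0.37). Germ-like cells, at -0.23 (-0.57 to 0.10), had an interval that included 0. The lower level was therefore not particular to granulosa-like cells. The granulosa-like interval lay below those of the other classes, but Adamts19 was chosen by that value, so the gap supports nothing. With the sub-cluster shares of KO in both libraries, the ratios were -0.98 in granulosa-like and -0.91 in epithelia-like cells. A log2 difference of at least 1 with at least 30 UMIs over both libraries is called past the fold below. Adamts19 was past it in granulosa-like cells, where 0.879% of 13082 genes were past it in the lower direction and 52 genes had a ratio as low. In epithelia-like and theca-like cells Adamts19 was not past the fold, and 80 of 12230 and 370 of 12553 genes had a ratio as low. The study set a limit of 0.25 on the log fold change from Seurat, together with an adjusted p-value from a Wilcoxon test over cells. The nearest measure here was the difference in ln of counts per 10000 plus 1. It was taken from UMIs summed over the class, with the same limit and no p-value. On that measure Adamts19 was just past the limit in granulosa-like cells (-0.27), where 0.243% of genes with at least 100 UMIs were past it. It was just short of the limit in epithelia-like cells (-0.24), where 0.22% of such genes were past it. Without the germ-led sub-clusters the log2 ratios were -1.34 (-1.52 to -1.16) in granulosa-like, -0.84 (-1.01 to -0.66) in epithelia-like and -0.44 (-0.64 to -0.23) in theca-like cells.

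The number of Adamts19 UMIs per positive cell moved with the share of positive cells. Of the WT granulosa-like cells, 231 held 1 UMI and 207 held 2 or more, and of the KO granulosa-like cells 317 held 1 UMI and 73 held 2 or more. The mean per positive cell was 1.83 UMIs in WT and 1.23 in KO. In epithelia-like cells it was 2.17 in WT and 1.42 in KO, and in theca-like cells 1.54 and 1.21. These counts were not thinned. Median depth was 12670 UMIs in WT and 8503 in KO granulosa-like cells, so depth enters them and they are no separate measure of a difference.

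Granulosa-like cells were not uniform in Adamts19. They were split into 6 sub-clusters (g1 to g6) without using Adamts genes, and the sub-cluster that held most cells was g2 in WT (41.9% of cells, against 17.9% in KO) and g1 in KO (34.6%, against 27.2% in WT). Cells of g2 were led by Pglyrp1, Mt2, Igfbp3 and Mycn, and held Adamts19 at 87.5 CPM in WT and 34.7 CPM in KO, a log2 ratio of -1.33 (-1.62 to -1.05). In g3, led by Fabp7 and Prlr, the values were 61.1 and 20.01 CPM, a ratio of -1.61 (-2.02 to -1.20). In g1, led by Ramp1 and Shtn1, they were 34.3 and 27.7 CPM, and the interval of the ratio included 0 (-0.31, -0.69 to 0.08). Among g1, g2 and g3, the level was thus lower in KO in g2 and g3, while no such difference was clear in g1.

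The smaller granulosa-like sub-clusters had fewer Adamts19 UMIs. In g6, led by interferon-response genes such as Ifit1 and Isg15, Adamts19 was at 84.9 CPM in WT and 24.1 CPM in KO (-1.81, -2.88 to -0.78), from 20 and 15 UMIs. In g5, led by Pax8 and Lypd1, it was at 40.0 and 21.05 CPM (-0.93, -1.89 to 0.01). In g4, led by the germ cell genes Hist1h2aa, Smc1b and Hormad1, it was at 18.3 and 17.4 CPM (-0.07, -0.76 to 0.68). When the sub-cluster shares of WT were applied to both libraries the log2 ratio in granulosa-like cells was -1.15, and with the shares of KO it was -0.98, no longer past the log2 limit of 1, against -1.36 with each library's own shares. The lower KO value therefore went together both with lower levels inside g2, g3 and the small g6 and with a smaller share of g2.

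**Figure D2:**
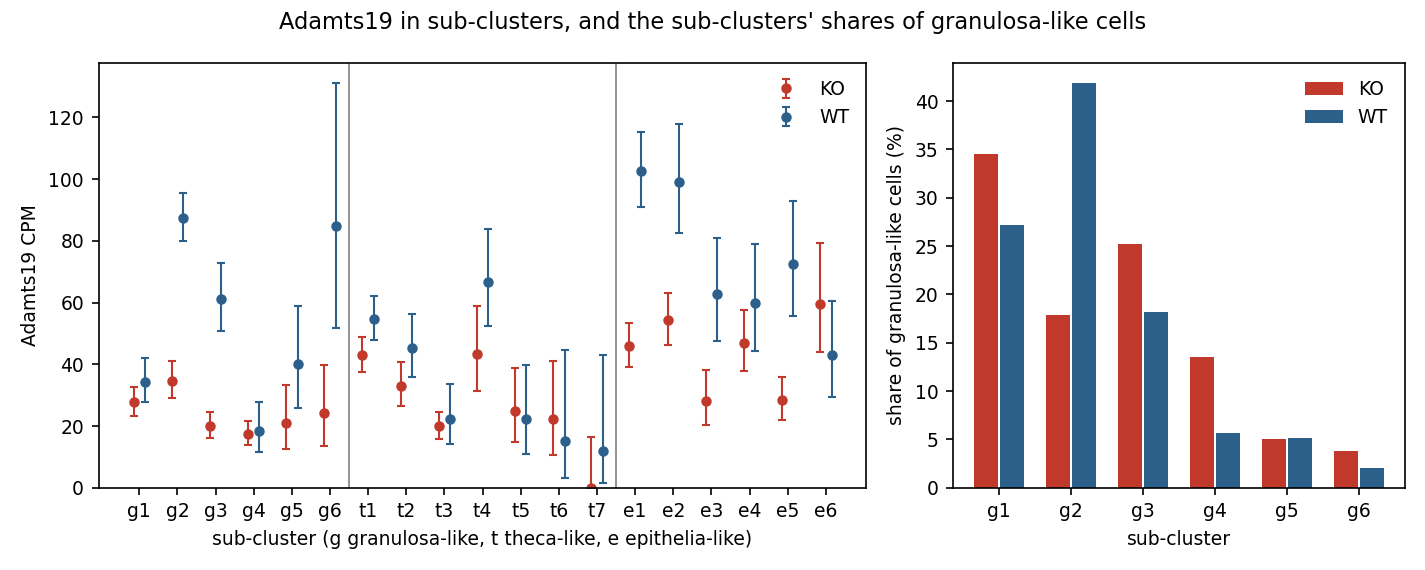
Adamts19 level (left, CPM with exact 95% counting intervals) in the sub-clusters of the granulosa-like (g), theca-like (t) and epithelia-like (e) classes, and the share of granulosa-like cells in each granulosa-like sub-cluster (right, %), KO in red and WT in blue. WT lies far above KO in g2, g3, e1 and e2, the libraries overlap in g1, g4 and most theca-like sub-clusters, and KO lies above WT in e6 with overlapping intervals.

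Epithelia-like and theca-like cells also varied in Adamts19 among their sub-clusters. The most numerous epithelia-like sub-clusters were e1 and e2. Adamts19 was at 102.5 CPM in WT and 45.9 CPM in KO in e1 (-1.16, -1.44 to -0.88) and at 99.0 and 54.3 CPM in e2 (-0.87, -1.21 to -0.52). In the dividing sub-clusters it was at 62.7 and 28.2 CPM in e3 (-1.15, -1.76 to -0.55) and at 59.9 and 47.0 CPM in e4 (-0.35, -0.87 to 0.18). In the germ-led e5 it was at 72.6 and 28.3 CPM (-1.36, -1.87 to -0.84), unlike in g4. The e6 sub-cluster, led by the stromal genes Ptn, Angptl7 and Mfap4, went the other way, at 42.9 CPM in WT and 59.7 CPM in KO, with an interval that included 0 (0.48, -0.20 to 1.17). Of the theca-like sub-clusters, t1 held most cells in both libraries, with 54.7 CPM in WT and 42.9 CPM in KO (-0.35, -0.62 to -0.08). In t4 it was at 66.9 and 43.5 CPM (-0.62, -1.20 to -0.05), in t2 at 45.2 and 33.0 CPM (-0.46, -0.91 to 0.00), and in the germ-led t3 at 22.4 and 19.96 CPM (-0.17, -0.85 to 0.56). The smaller t5 and t6 lay above 0 with intervals that included 0, and t7 held 2 Adamts19 UMIs in WT and 0 in KO. With WT sub-cluster shares in both libraries, the log2 ratio was -0.89 in epithelia-like and -0.38 in theca-like cells, and with KO shares -0.91 and -0.34, so that the epithelia ratio hardly moved from -0.92.

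Adamts19 was also compared in bins of cell depth, and its level did not rise steadily with depth. Granulosa-like cells were grouped by their total UMIs. Between 5500 and 8000 UMIs Adamts19 was at 26.0 CPM in WT and 21.9 CPM in KO, a ratio of -0.25 (-1.15 to 0.80) from 11 WT UMIs. Between 8000 and 12000 UMIs it was at 48.5 and 30.0 CPM (-0.69, -0.98 to -0.40), between 12000 and 20000 at 82.6 and 20.5 CPM (-2.01, -2.38 to -1.66), and between 20000 and 30000 at 34.8 and 17.1 CPM (-1.03, -1.68 to -0.38). The KO level was below WT in every bin, and the size of the difference varied between bins. The bins mix sub-clusters, and values without g4 are not given for them. The germ-led g4 had a median of 17491 UMIs per KO cell and Adamts19 at 17.4 CPM. The g2 sub-cluster had a median of 14254 UMIs per WT cell and Adamts19 at 87.5 CPM. In KO theca-like cells Adamts19 fell from 41.8 CPM in the lowest bin to 16.9 CPM in the highest, and in KO epithelia-like cells from 60.0 to 35.4 CPM. The part of depth, of cell state and of carried-over germ cell transcripts in the difference was not tested beyond these values.

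Adamts1, the member known from ovulation, was a broadly expressed somatic gene. It was highest in perivascular-like cells, at 110.3 CPM in KO and 69.2 CPM in WT from 43 and 14 UMIs, and stood at 43.8 and 62.0 CPM in endothelia-like, 39.1 and 50.1 CPM in theca-like, 37.5 and 35.5 CPM in immune-like, 30.9 and 34.2 CPM in granulosa-like and 23.2 and 24.9 CPM in epithelia-like cells. Germ-like cells held 0.592 CPM in KO and 0.539 CPM in WT. In granulosa-like cells the log2 KO over WT ratio of Adamts1 was -0.15 (-0.33 to 0.03), and in epithelia-like cells -0.10 (-0.37 to 0.17). The theca-like ratio was -0.36 (-0.54 to -0.18), which became -0.20 (-0.39 to -0.01) without the germ-led sub-cluster and -0.13 with WT sub-cluster shares. Adamts1 therefore differed little in the class in which Adamts19 differed most.

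Adamts5 and Adamts9, which like Adamts1 cut versican, followed different cells. Adamts9 was highest in endothelia-like cells, at 53.8 CPM in KO and 89.0 CPM in WT from 75 and 33 UMIs, and was at 17.2 and 18.6 CPM in granulosa-like, 13.0 and 19.8 CPM in theca-like and 6.64 and 7.20 CPM in epithelia-like cells. Its log2 ratio was -0.11 (-0.35 to 0.14) in granulosa-like and -0.12 (-0.62 to 0.40) in epithelia-like cells. Intervals lay below 0 in theca-like cells (-0.61, -0.91 to -0.31), in endothelia-like cells (-0.72, -1.33 to -0.09) and, at 1.10 and 1.40 CPM, in germ-like cells (-0.35, -0.69 to -0.01). Adamts5 was found mainly in theca-like cells, at 7.86 CPM in KO and 10.7 CPM in WT (-0.45, -0.85 to -0.04), and in granulosa-like cells it held only 10 and 3 UMIs. Adamts9 overlaps 3 counted genes of the opposite strand, among them A730049H05Rik, and how the counting assigned reads of such overlaps is not given in the sources used here.

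Within theca-like cells, Adamts5 and Adamts9 were both high in WT cells of t4, a sub-cluster led by Egfl6, Rspo3, Crabp2 and Scx that held 13.4% of theca-like cells in WT and 8.66% in KO. There Adamts9 was at 68.7 CPM in WT and 30.0 CPM in KO (-1.19, -1.86 to -0.56), and Adamts5 at 47.9 and 23.8 CPM (-1.01, -1.78 to -0.28), from 76 and 29 and from 53 and 23 UMIs. In t1 the KO values were not lower, with Adamts9 at 11.4 CPM in WT and 12.1 CPM in KO and Adamts5 at 3.66 and 5.55 CPM. The t4 sub-cluster was singled out after its values had been seen. With the sub-cluster shares of WT in both libraries, the theca-like ratios were -0.44 for Adamts9 and -0.30 for Adamts5, and with those of KO -0.33 and -0.05. Without the germ-led t3 they were -0.51 (-0.84 to -0.19) and -0.52 (-0.97 to -0.08). The 10 theca markers were themselves lower in KO theca-like cells, with a median log2 ratio of -0.22 and 9 intervals below 0 (11.4% of all genes), whereas the median over all 12553 genes tested there was 0.02.

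Adamts2, which removes the amino-terminal propeptide of fibrillar procollagens, was mainly a theca-like gene. It was at 69.5 CPM in KO and 71.8 CPM in WT theca-like cells, from 1008 and 657 UMIs, with a log2 ratio of -0.05 (-0.19 to 0.10). It was much lower in epithelia-like cells (10.00 and 7.61 CPM), granulosa-like cells (7.25 and 6.28 CPM) and germ-like cells (1.11 and 0.954 CPM). Its ratios were 0.39 (-0.07 to 0.87) in epithelia-like, 0.21 (-0.20 to 0.62) in granulosa-like and 0.22 (-0.15 to 0.59) in germ-like cells, all above 0 with intervals that included 0, and under other settings the granulosa ratio fell to -0.21 and the epithelia ratio to -0.12. Adamts2 overlaps Gm12199 and Gm12200 on the opposite strand. Adamts12, a relative of Adamts7 that cuts cartilage oligomeric matrix protein, was likewise a theca-like gene, at 5.65 CPM in KO and 6.56 CPM in WT (-0.21, -0.71 to 0.29). In granulosa-like cells Adamts12 had 2 and 4 UMIs, too few to compare.

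Adamts10 and Adamts17, both tied to fibrillin microfibrils, were found in each of the 4 main classes. Adamts10 was at 24.5 CPM in KO and 24.7 CPM in WT theca-like cells, 19.4 and 18.9 CPM in granulosa-like cells, 15.4 and 16.6 CPM in epithelia-like cells and 1.53 and 1.49 CPM in germ-like cells. Its log2 ratios lay between -0.10 and 0.04 in these 4 classes, and each interval included 0. Adamts17 was at 8.68 CPM in KO and 9.97 CPM in WT granulosa-like cells (-0.20, -0.54 to 0.14), 6.42 and 6.52 CPM in epithelia-like cells (-0.02, -0.55 to 0.52), 5.79 and 5.13 CPM in theca-like cells (0.17, -0.36 to 0.72) and 0.723 and 0.722 CPM in germ-like cells. The closest relative of Adamts19 was thus at a similar level in both libraries, although its granulosa interval does not exclude a fall to -0.54.

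**Figure D3:**
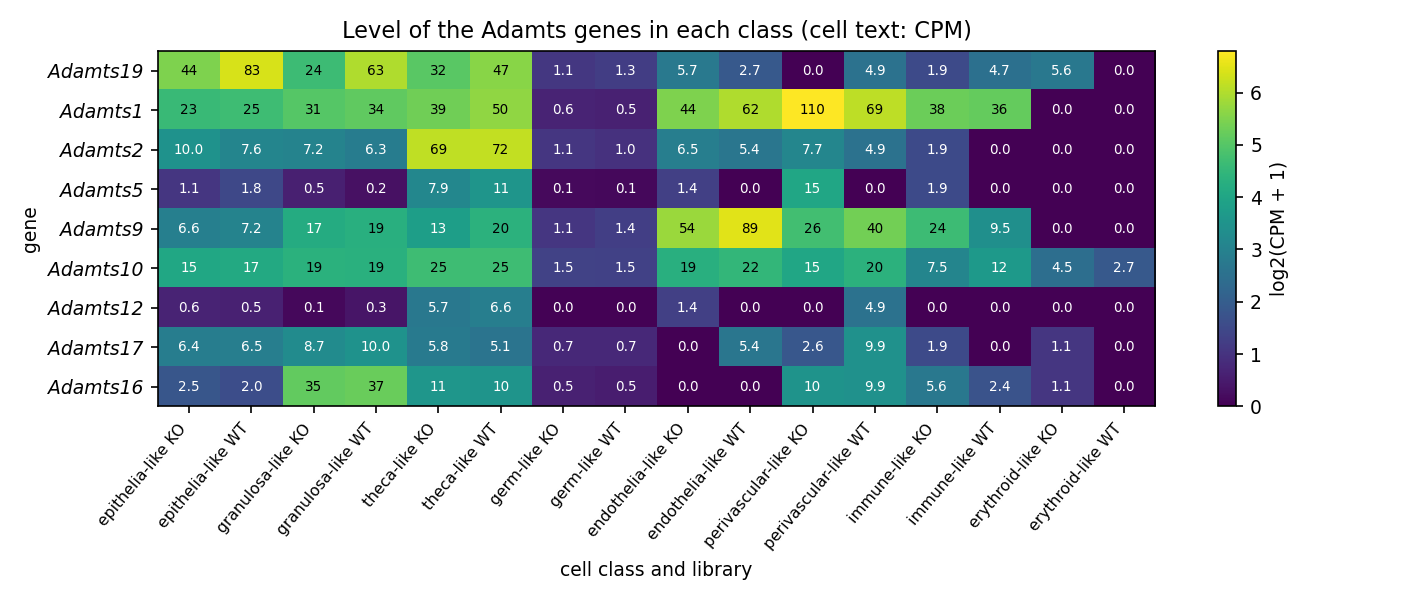
Level of the 8 Adamts genes and of Adamts16 in each class and library, coloured by log2(CPM + 1) with the CPM written in each cell. Adamts19 is spread over the epithelia-like, granulosa-like and theca-like columns, Adamts2 is highest in theca-like, Adamts9 in endothelia-like and Adamts16 in granulosa-like cells.

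The 7 other members gave 28 gene and class combinations in the 4 main classes, of which 22 had at least 30 UMIs. None of the 22 was past the fold, where 1.87% of genes were past it in either direction in granulosa-like, 2.08% in theca-like, 1.32% in epithelia-like and 2.4% in germ-like cells. A count of 0 among 22 is close to such background shares and says little beyond the individual intervals. Of the 22 ratios, 14 were below 0, from -0.61 to 0.39, and 4 had an interval that excluded 0, each of them below 0. Over all genes tested, the interval excluded 0 for 26.3% in granulosa-like, 27.4% in theca-like, 15.8% in epithelia-like and 51.2% in germ-like cells, so 4 of 22 is no more than the background. These were the theca-like ratios of Adamts1, Adamts5 and Adamts9, 3 of the 7 members measured there, where 11.4% of all genes had an interval below 0, and the germ-like ratio of Adamts9. In granulosa-like cells the median of the 5 members measured was -0.11, beside -0.02 over all genes tested, and no interval excluded 0. The lowest of these 5 intervals began at -0.54, while that of Adamts19 began at -1.53 and ended at -1.20.

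**Figure D4:**
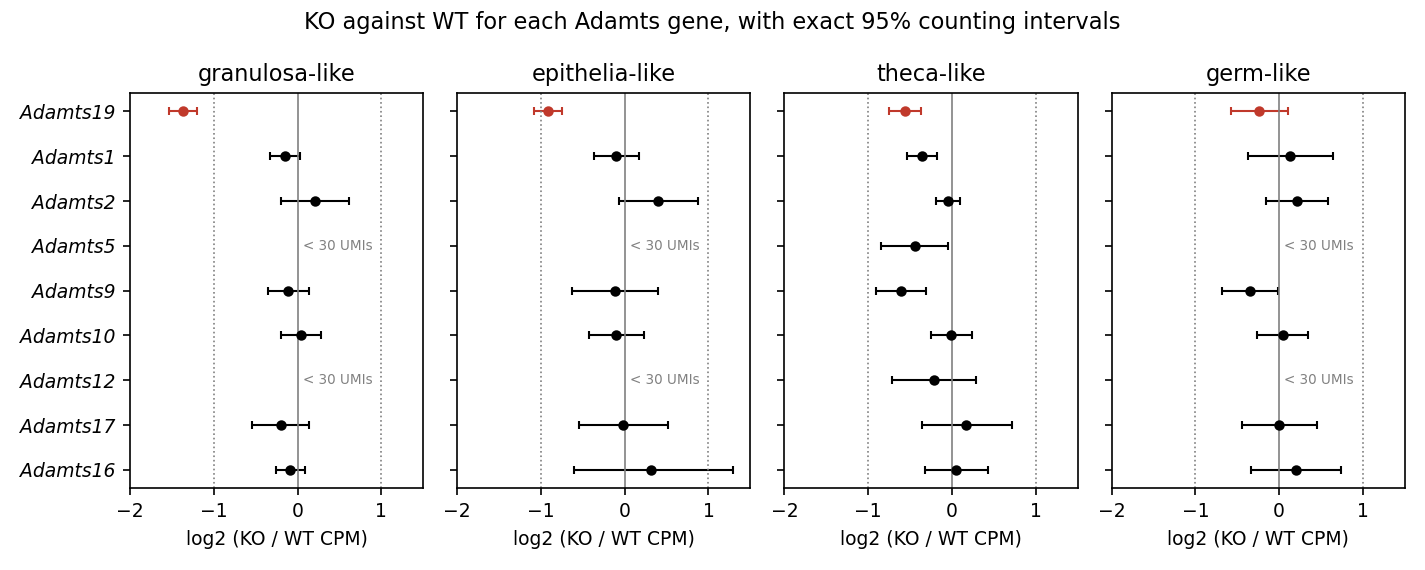
Log2 KO over WT CPM ratio of the 8 Adamts genes and of Adamts16 in the 4 main classes, as points with exact 95% counting intervals, and dotted lines at -1 and 1. Adamts19 (red) lies to the left of the other genes in granulosa-like and epithelia-like cells, and in theca-like cells its interval overlaps those of Adamts9, Adamts5, Adamts1 and Adamts12.

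Among the 11 other Adamts genes, Adamts16 had the most UMIs in granulosa-like cells. It was at 36.7 CPM in WT and 34.6 CPM in KO granulosa-like cells, with a log2 ratio of -0.08 (-0.26 to 0.09), and at 10.5 and 10.9 CPM in theca-like cells (0.05, -0.32 to 0.44). Unlike Adamts19 it was low in epithelia-like cells, at 2.04 CPM in WT and 2.54 CPM in KO. In 5 of the 6 granulosa-like sub-clusters its ratio was between -0.11 and 0.11, and in g2 it was at 34.5 CPM in WT and 25.6 CPM in KO (-0.43, -0.79 to -0.07). Adamts7 was highest in theca-like cells, at 13.1 CPM in WT and 11.0 CPM in KO (-0.26, -0.61 to 0.10). Of the 11 genes, 3 had at least 30 UMIs in granulosa-like cells, 7 in theca-like, 2 in epithelia-like and 8 in germ-like cells. Past the fold were Adamts14 and Adamts20, both in theca-like cells, where 2.08% of all genes tested were past it. Adamts14, like Adamts2 a procollagen amino-propeptidase, was at 5.68 CPM in WT and 2.76 CPM in KO from 52 and 40 UMIs (-1.04, -1.68 to -0.42), and at -0.87 without the germ-led sub-cluster. Adamts20 rested on 22 and 17 UMIs (-1.04, -2.04 to -0.06).

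Of the Adamts-like genes, which resemble the family but lack the protease domain, and their relative Papln, 1 of 6 had enough UMIs in granulosa-like cells. This was Papln, at 7.38 CPM in WT and 7.14 CPM in KO (-0.05, -0.43 to 0.35). Adamtsl1 was highest, among the 4 main classes, in theca-like cells, at 10.1 CPM in WT and 9.72 CPM in KO (-0.05, -0.44 to 0.35). Both intervals given here included 0. In germ-like cells the interval of Adamtsl1 lay below 0. Adamtsl3 was past the fold there, at -2.92, where 2.4% of all genes tested were past it.

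Substrates, inhibitors and other metalloproteases were examined as lists. Of 26 substrates and partners of the family (versican, fibrillins, procollagens, thrombospondins and others), 20 were measured in granulosa-like cells, with a median log2 ratio of -0.08, and none was past the fold. Of 11 inhibitors and processing factors, 11 were measured with a median of -0.15, and the inhibitor gene Timp4 alone was past the fold, at 2.12 CPM in WT and 5.72 CPM in KO (1.43, 0.81 to 2.09). Of 18 other metalloproteases of the Mmp, Adam and Bmp1 groups, 14 were measured with a median of -0.08 and none past the fold. Over all genes tested in granulosa-like cells, 1.87% were past the fold. In germ-like cells, the proteoglycan gene Dcn (0.929 CPM in WT, 1.87 CPM in KO, 1.01) and the membrane protease gene Mmp16 (2.07 and 0.962 CPM, -1.10) were past the fold. Of all genes tested in germ-like cells, 2.4% were past it. No gene of these 3 lists was past it in theca-like or epithelia-like cells, where 2.08% and 1.32% of all genes were. Immediate early genes, which respond to handling and dissociation, had 12 of 17 intervals below 0 and a median of -0.30 in granulosa-like cells, 16 of 17 and -0.43 in theca-like cells, and 11 of 17 and -0.18 in epithelia-like cells. Of all genes tested, 14.1%, 11.4% and 6.3% had an interval below 0 in these classes. Of the 12 granulosa markers, 6 had intervals below 0 there, with a median of -0.08 and a lowest value of -0.53. Of the 10 theca markers in granulosa-like cells, 5 had intervals above 0 and 1 below 0, with a median of 0.69. Of all genes tested there, 26.3% had an interval that excluded 0 in either direction. Tcf21 and Mfap4 were past the fold in the higher direction, while Col3a1, the most abundant of them, was at 95.1 CPM in WT and 82.7 CPM in KO (-0.20, -0.31 to -0.09). Their part in the Adamts19 difference was not tested.

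The genes whose pattern over the 8 classes and both libraries was most like that of Adamts19 were sought among 9050 genes, by Pearson's r of log2(CPM + 1) over 16 values. These values share libraries and depth, and the KO difference of Adamts19 enters them, so r is a description. The 8 highest were Gabra4 (0.956), Ank3 (0.9303), Gata6 (0.928), Apol10b (0.926), Peg3 (0.921), Smpdl3b (0.909), Emx2os (0.905) and Dcaf12l1 (0.904). Of the 7 other members, Adamts17 had the highest r (0.658), followed by Adamts2 (0.620) and Adamts10 (0.609), while Adamts1 (0.354) and Adamts9 (0.213) were far lower. Emx2os, a long noncoding RNA beside the gonadal transcription factor gene Emx2, was also lower in KO in the 3 somatic-like classes, at 51.4 CPM in WT and 28.8 CPM in KO granulosa-like cells (-0.84, -1.002 to -0.67), 19.8 and 9.03 CPM in theca-like cells (-1.13, -1.47 to -0.80) and 40.0 and 20.3 CPM in epithelia-like cells (-0.98, -1.22 to -0.73). Gabra4, with the highest r, had a granulosa ratio of -0.18 (-0.35 to -0.01), and Gata6, a transcription factor gene of gonadal somatic cells, one of -0.17 (-0.26 to -0.09).

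Position along the genome was not used to choose the genes. In the GENCODE M21 annotation of GRCm38, Adamts19 (ENSMUSG00000053441) spans chr18:58836667-59054060 on the plus strand, a protein-coding gene that overlaps no other annotated gene. Nr3c1 lies on the same chromosome, with 19.3 Mb between them, so sequence linked to the deleted allele cannot be told apart from loss of GR in this design. Adamts1 and Adamts5 are neighbours on chromosome 16, 53.1 kb apart, and the other members lie on chromosomes 6, 7, 11, 15 and 17. No window of 91 bases in the last 500 bases of any member's transcripts occurred in a transcript of another gene, so the members do not share reads near the 3' end in this annotation.

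The genes around Adamts19 did not show a difference of its size. Of 7 genes listed within 1 Mb, 5 had at least 30 UMIs in granulosa-like cells and none was past the fold. Slc12a2, an ion cotransporter gene, was at -0.12 (-0.36 to 0.13), Fbn2, which encodes a fibrillin, at -0.08 (-0.18 to 0.01), Slc27a6, of the fatty acid transport proteins, at -0.25 (-1.07 to 0.58), Isoc1 at 0.01 (-0.10 to 0.13) and A730017C20Rik at -0.39 (-0.74 to -0.04). In epithelia-like cells Fbn2 was at 148.6 CPM in WT and 111.2 CPM in KO (-0.42, -0.53 to -0.30). Over the whole chromosome, 12 of 333 genes (3.60%) were past the fold in granulosa-like cells with Adamts19 and Nr3c1 left out, against 1.87% of all genes. Within 20 Mb of Nr3c1, a window set after the distance of Adamts19 was known, the share was 5.29% of 170 genes, and 1.84% of 163 genes on the rest of the chromosome. The corresponding shares were 5.39% and 3.38% in theca-like, 4.08% and 1.38% in epithelia-like and 4.15% and 2.76% in germ-like cells. Genes near Nr3c1, the stretch that includes Adamts19, were thus past the fold more often than the rest of the chromosome in these 2 libraries, and what this has to do with Adamts19 was not tested.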

How the data were processed

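The deposited values were whole-number UMI counts per gene and barcode, made by the authors with Cell Ranger (3.0.2 per the file headers) from 10x 3' v3 libraries. The submitters' processing notes name mm10 and Seurat 3.2.3. Total counts were 186117981 UMIs over 17829 barcodes in KO and 168483330 over 11430 in WT. The members and gene lists were chosen with earlier results of these data known.

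The cell limits of the study were applied (WT, 1500 to 6500 genes and 5500 to 40000 UMIs; KO, 1200 to 5500 genes and 3000 to 30000 UMIs; under 10% mitochondrial UMIs). Cells were clustered with scanpy 1.11.5 and leidenalg 0.10.2 (2000 variable genes without Adamts genes, 30 components, 20 neighbours, resolution 0.5, seed 1), and named when at least 3 fixed markers were in at least 10% of cells at over 2-fold the level elsewhere. The clustering tool, the form of the naming rule and a second clustering of stromal cells, which separated perivascular-like cells and left 71 cells unnamed, were settled after clusters had been seen, as were the sub-clusters and depth bins. No doublet caller was applied in the main analysis. Names may differ from those of the study.

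UMIs were summed per class and library and scaled to CPM. Intervals are exact (Poisson for CPM, Clopper-Pearson for shares, conditional binomial for ratios, 95%). Share limits at a count of 0 use 3 counts. They cover counting error only. Shares were repeated after thinning each cell to 3000 UMIs, which left out 0 cells. Ratios were called past the fold at an absolute log2 of 1 with at least 30 UMIs over both libraries. Genes named are the members, relatives past the fold or highest in a class, the 8 genes most like Adamts19 (at least 100 UMIs in WT granulosa-like cells) and genes within 1 Mb. Counting steps were tested on simulated data. Identifiers matched GENCODE M21 for 27645 of 27998 genes (98.7%). Promoters and proteins were not used here.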

Additional observations from a re-analysis of the deposited data

Results flagged for a closer look

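Adamts19 was also detected in barcodes that the limits on cells left out, which no comparison above uses. It stood there at 27.9 CPM in WT, from 473 UMIs, and at 14.5 CPM in KO, from 189 UMIs, above the germ-like level of 1.34 and 1.14 CPM. These barcodes are a mixture of classes that were not named, so the values have no class, and the difference between the libraries was not tested. Of the other members, Adamts1 was at 16.9 CPM in WT and 16.4 CPM in KO in the same barcodes, and Adamts10 at 9.33 and 8.66 CPM.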

How the results depend on the processing

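No paired analysis was possible because each group holds 1 library. The granulosa ratio of Adamts19 (-1.36) stayed below 0 under 12 alternatives, from -1.43 to -0.98. It left its counting interval only with sub-cluster shares of KO (-0.98) or WT (-1.15) used for both libraries, and with those of KO it was no longer past the fold. These settings were added after seeing the data, as were the 2 removals of germ-marked cells. The theca-like ratio ranged from -0.68 to -0.34 and the epithelia-like ratio from -0.95 to -0.80. The WT granulosa level (62.9 CPM) was 67.5 CPM without Scrublet doublets, 67.5 CPM without germ-led sub-clusters, 72.3 CPM without somatic-like cells that held germ markers, and 93.7 CPM when mitochondrial, ribosomal protein and haemoglobin genes were left out of the total. The WT granulosa over epithelia ratio (-0.39) was -0.24 without somatic-like cells that held germ markers. The 7 other members gave 2 combinations past the fold with no minimum of UMIs, and 0 otherwise. The 244 genes past the fold in granulosa-like cells became 656 with common limits on cells, 1389 with no minimum and 80 with at least 100 UMIs. Common limits gave 529 higher and 127 lower genes against 129 and 115, and removal of Scrublet doublets 73 and 115. The cause was not tested. No gene within 1 Mb of Adamts19 was past the fold under any of 12 alternatives. Removal of cells with markers of another class left 7 KO and 2 WT epithelia-like cells, so it gave no epithelia value. Of 307 alternative values for 32 further ratios, 293 lay inside the main interval, 14 outside, and no ratio whose interval excluded 0 reversed. Adamts1 in granulosa-like cells (-0.15) was at 0.17 after thinning. Depth limits mainly Adamts5 and Adamts12, which had under 30 UMIs outside theca-like cells in the main classes, and the 4 small classes.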

Other observations

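Several relatives were detected in germ-like cells at low levels. Adamts20 was at 3.63 CPM in WT and 2.98 CPM in KO (437 and 363 UMIs, -0.28, -0.49 to -0.08), Adamts6 at 1.80 and 1.80 CPM and Adamts3, which with CCBE1 processes VEGF-C, at 1.35 and 1.22 CPM (-0.15, -0.48 to 0.18). In theca-like cells Adamts20 was at 2.40 and 1.17 CPM, Adamts6 at 2.08 and 1.86 CPM and Adamts3 at 2.51 and 2.89 CPM. Adamtsl4 was at 1.10 CPM in WT and 1.19 CPM in KO germ-like cells and at 0.219 and 0.414 CPM in theca-like cells. Adamtsl1, higher in theca-like cells, was in germ-like cells at 1.93 and 1.53 CPM (-0.33, -0.62 to -0.05).

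Adamtsl3, which encodes a secreted protein without a protease domain, differed most of the family. Germ-like cells held 187 of its UMIs in WT and 25 in KO, or 1.55 and 0.205 CPM, a log2 ratio of -2.92 (-3.58 to -2.31) that ranged from -2.95 to -2.76 over 10 alternatives. By germ-like cluster it was at 3.29 CPM in WT and 0.280 CPM in KO in cluster 2 (71 and 5 UMIs), at 1.67 and 0.395 CPM in cluster 0 (51 and 10 UMIs) and at 1.33 and 0.173 CPM in cluster 8 (35 and 1 UMIs). The low KO value was thus found in several germ-like clusters. In cluster 9, with 3 UMIs in each library, no difference was detectable. Adamtsl3 lies at chr7:82335694-82614450 in GRCm38, where it overlaps Gm44919 on the same strand, and of 22 measured genes within 1 Mb of it in germ-like cells 0 were past the fold, with a median log2 ratio of -0.07. Adamtsl3 was named because it is past the fold, and with 1 library in each group the difference has no replicate check.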
